A study of Mus musculus with 6 samples.

Results

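The NRF2 antioxidant response was followed through 10 genes, chosen by name as the transcription factor NRF2 (*Nfe2l2*), its inhibitor KEAP1 (*Keap1*) and 8 protective enzymes or enzyme subunits: *Nqo1*, *Gclc*, *Gclm*, *Gsr*, *Txnrd1*, *Srxn1*, *Prdx1* and *Sod2*. All 10 were found by their symbols, with 1 row each, among the 21367 genes of the deposited table, and all 10 passed the filter on low counts that left 13036 genes for testing. The 6 kidneys sequenced belonged to 3 Ptpn6+/mev mice and their 3 wild-type littermates, on the C57BL/6J background, and each mouse gave 1 library. SHP-1, a tyrosine phosphatase, is encoded by *Ptpn6*, and Ptpn6+/mev mice have the viable motheaten mutation in 1 of its copies. The labels call them an SHP1 knockdown. Mice of both groups were 7 weeks old, lost the right kidney, had the left renal pedicle clamped for 34 min and were killed after 24 h of reperfusion. No uninjured kidney was among these libraries, so each comparison is between 2 injured groups.

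NRF2 is held in the cytoplasm by KEAP1, which passes it to a CUL3 ubiquitin ligase for destruction. Oxidants and electrophiles modify cysteines of KEAP1, NRF2 then escapes, enters the nucleus, pairs with small MAF proteins and binds antioxidant response elements near genes for glutathione synthesis, the thioredoxin system and quinone detoxification. In the kidney the tubular epithelium meets a burst of reactive oxygen species at reperfusion, and NRF2 is known for its protective role there. NRF2 is controlled mainly at the level of its protein, so the RNA of *Nfe2l2* does not show how much of the factor is active.

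None of the 10 genes was called higher or lower in Ptpn6+/mev mice by edgeR's quasi-likelihood test (FDR under 0.05), which called 0.138% of all tested genes in either direction. Below, FDR is the adjusted p of this test and SE the standard error of the log2 fold change, unless another test is named. An unadjusted p under 0.05 was found for 3 of the 10, *Nqo1*, *Txnrd1* and *Gclm*, each with a lower mean in Ptpn6+/mev mice, against 6.71% of all tested genes lower and 5.53% higher at this p. *Nqo1* had the largest difference, with a mean FPKM (fragment counts corrected for transcript length and sequencing depth) 41.0% below that of wild-type mice. It was the gene that edgeR's exact test and DESeq2 called, 1 of 10 in each, and these tests called 1.78% and 1.88% of all tested genes lower. The fitted log2 fold change, Ptpn6+/mev over wild-type, was below 0 for all 10 genes, with a median of -0.18, while 50.5% of all tested genes were below 0 and their median was -0.002. Without wild-type replicate 2 it was below 0 for 8 of the 10, with a median of -0.15. With 1 library left out at a time the median lay between -0.31 (without wild-type replicate 1) and -0.15. The 10 genes share regulation and mice, so they are not 10 independent observations, and no test was made of them as a group.

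**Figure D1:**
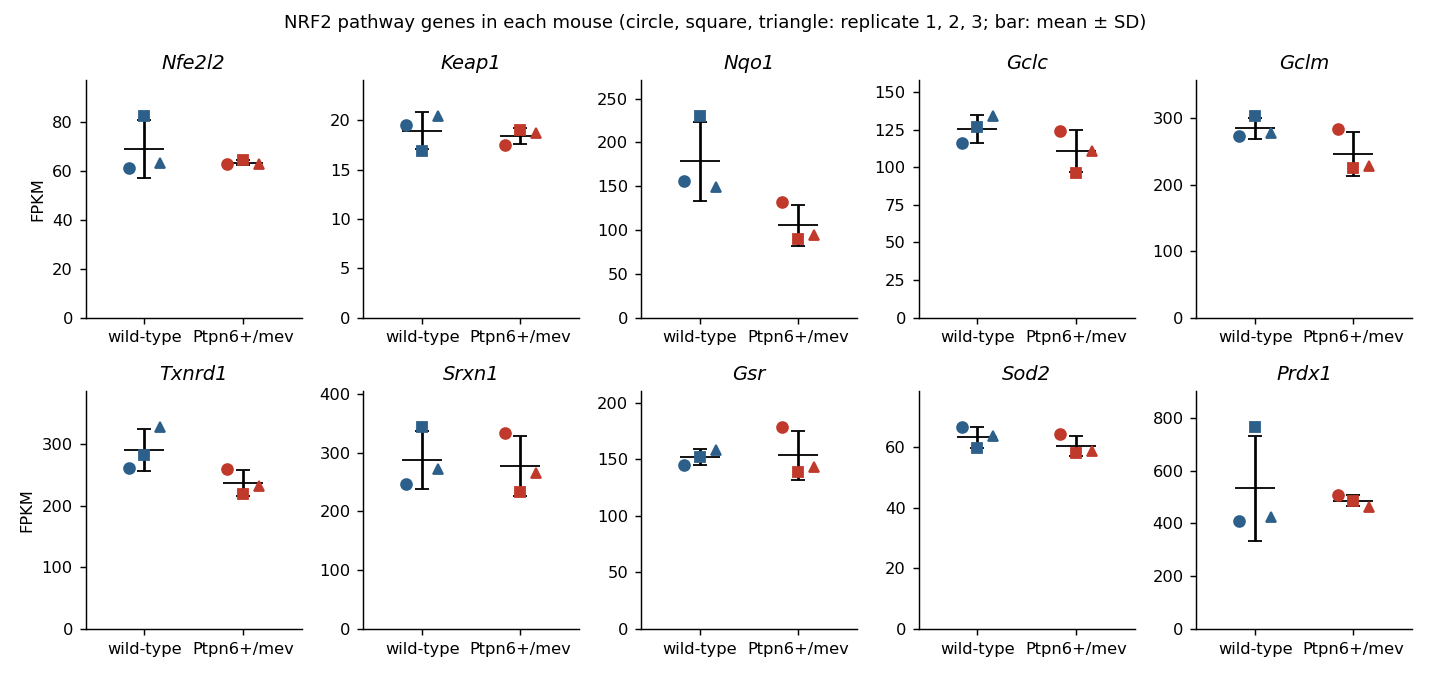
FPKM of the 10 genes (vertical axes, each starting at 0) in wild-type (blue) and Ptpn6+/mev (red) mice; circles, squares and triangles are replicates 1, 2 and 3, and the bars are the mean and SD of 3 mice. The groups are apart for Nqo1 and, by a narrow gap, for Txnrd1, and they overlap for the other 8 genes.

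Total counts per library lay between 10271590 and 12361745, and the 10 genes had between 572 and 16475 counts each per library. Wild-type replicate 2 stood apart from the other libraries: its summed FPKM over 7 endothelial markers was 84.6 against 181 to 195 in the other 5 libraries, and over 6 fibroblast markers 50.9 against 140.0 to 242. Fold changes that moved by over 1.5 times without it are therefore given both ways. Mean FPKM of *Ptpn6* itself was 13.4 ± 1.42 with the mev allele and 14.6 ± 3.38 without it (SD, 3 mice each), a log2 fold change of -0.19 (FDR = 0.715). Without wild-type replicate 2 it was -0.34, with a 95% interval from -0.62 to -0.06 (FDR = 0.201). With 1 library left out at a time it lay between -0.34 and -0.06, the latter without wild-type replicate 1 (FDR = 0.938). Counts per gene do not separate the mutant from the normal allele and so do not check the genotype. The labels number the mice within each group, and n below always counts mice.

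The regulators come first. *Nfe2l2* lies on chromosome 2 from 75675513 to 75704641 (GRCm38, GENCODE M21, minus strand). In Ptpn6+/mev mice 1, 2 and 3 it reached 62.6, 64.5 and 62.8 FPKM, against 61.0, 82.4 and 63.3 FPKM in wild-type mice 1, 2 and 3. Wild-type replicate 2 was high, and the other 5 mice lay within a few FPKM of each other. The fit gave a log2 fold change of -0.20 (SE 0.14, FDR = 0.651), 95% interval -0.53 to 0.13. Without wild-type replicate 2 it was -0.01, with an interval from -0.19 to 0.16.

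*Keap1*, the adaptor that marks NRF2 for destruction, lies on chromosome 9 from 21229730 to 21239361 on the minus strand. Ptpn6+/mev mice 1, 2 and 3 had 17.55, 19.0 and 18.75 FPKM, and wild-type mice 1, 2 and 3 had 19.6, 16.9 and 20.45. The groups overlapped throughout, and wild-type replicate 2, the highest for *Nfe2l2*, was here the lowest. On the log2 scale the fitted difference was -0.11 (SE 0.09, FDR = 0.682), 95% interval -0.31 to 0.09. Of the 4693 exonic bases annotated for *Keap1*, 510 are shared with an antisense transcript, *Gm16754*, whose reads cannot be told apart from its own unless counting used the strand. The ratio of *Keap1* to *Nfe2l2* FPKM was 0.291 ± 0.00960 in mice with the mev allele and 0.283 ± 0.0672 in wild-type mice (SD, n = 3 each).

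Antioxidant response elements have a core that is written here as TGACNNNGC, and this core was searched on both strands in the promoter windows of RefSeq (GRCm38.p6), each with 250 bases before and 50 bases from the start site. Windows were found for 8 of the 10 genes, 10 windows in all because *Txnrd1* has several start sites. *Gclc* and *Gsr* had none. The core was present in 5 of the 10 windows and in 12.4% of all 32851 windows. A longer form, which adds an A after the core, was present in 1 of the 10 windows and in 3.04% of all windows. The matches before a start site are printed with up to 20 flanking bases on each side, on the strand of the gene. Sequence further than 250 bases before a start site was not searched, so a gene without a match here may have one there. Capitals mark the core. Positions count from the start site, which is 0.
Nfe2l2 (chr2:75704875-75704913, minus strand, core at -240 to -232): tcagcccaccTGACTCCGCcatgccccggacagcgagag
Gclm (chr3:122245403-122245451, plus strand, core at -134 to -126): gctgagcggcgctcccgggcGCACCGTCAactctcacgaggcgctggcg
Prdx1 (chr4:116685446-116685494, plus strand, core at -133 to -125): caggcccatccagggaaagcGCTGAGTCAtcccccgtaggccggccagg
Txnrd1 (chr10:82859094-82859142, plus strand, core at -92 to -84): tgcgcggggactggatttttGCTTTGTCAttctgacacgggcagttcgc

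The *Nfe2l2* match reads along the gene. Those of *Gclm*, *Prdx1* and *Txnrd1* read on the opposite strand, as TGACGGTGC, TGACTCAGC and TGACAAAGC. The *Prdx1* match overlaps TGACTCA, a motif that AP-1 proteins bind. The *Txnrd1* match is also the 1 match of the longer form. It lies in the window from 82858956 to 82859255, inside the gene, which is annotated from 82833951, and its positions count from the start site of that window. The other *Txnrd1* windows held no match. In *Srxn1* the match, GCTAGGTCA on the gene's strand, lies within the first exon at 28 to 36. The windows of *Nqo1*, *Keap1* and *Sod2* do not hold these letters. A match is a description of the sequence, and nothing was measured here on binding.

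*Nqo1* encodes a quinone reductase that passes 2 electrons at once to quinones and so avoids semiquinone radicals, and it is widely used as a readout of NRF2. It lies on chromosome 8 from 107388225 to 107403206 on the minus strand. In Ptpn6+/mev mice 1, 2 and 3 it reached 132, 89.7 and 94.3 FPKM, against 156, 230.3 and 149 FPKM in wild-type mice 1, 2 and 3. All 3 Ptpn6+/mev mice were below all 3 wild-type mice, with Ptpn6+/mev replicate 1 nearest to the wild-type range and wild-type replicate 2 far above its group mates. Group means were 105 ± 23.1 and 178 ± 45.1 FPKM (SD, n = 3 each). Against wild-type, the log2 fold change came to -0.84 (SE 0.23, FDR = 0.187), 95% interval -1.36 to -0.32. Other tests gave *Nqo1* an FDR of 0.0226 (edgeR's exact test), 0.0142 (DESeq2) and 0.0323 (limma-voom with sample quality weights, which called 2.22% of all tested genes lower), so the call turned on the test. Of all tested genes, 1.84% had a fold change at or below that of *Nqo1*.

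Part of this size came from 1 mouse. Without wild-type replicate 2 the log2 fold change of *Nqo1* was -0.57 (SE 0.15, FDR = 0.0869), with a 95% interval from -0.90 to -0.24, and the mean of the remaining wild-type mice was 152 FPKM. Leaving out each of the 6 libraries in turn gave values between -1.04 and -0.57. An exact permutation test of the FPKM means gave p = 0.1 (two-sided), the smallest value that 3 mice against 3 allow. *Txnrd1* was the other gene of the 10 at this p, and 2 of 10 genes without overlap in FPKM, both lower in Ptpn6+/mev mice, compare with 6.38% of all tested genes in that direction. None of the 10 was higher without overlap, against 14.0% of all tested genes. On TMM-scaled log2 CPM (counts relative to library size, scaled so that most genes do not differ between libraries) 3 of the 10 did not overlap, *Nqo1*, *Txnrd1* and *Sod2*, all lower. Of all tested genes, 9.8% were lower and 9.64% higher in this way.

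Summed markers of the proximal tubule moved in the same direction as *Nqo1*. Over 12 markers, *Lrp2*, *Cubn* and *Slc34a1* among them, the summed FPKM was 1538, 1531 and 1390.0 in Ptpn6+/mev mice 1, 2 and 3, against 1965, 1894 and 1851 in wild-type mice 1, 2 and 3, without overlap. Of the 12 markers, 11 had a log2 fold change below 0 and the median was -0.44. The quasi-likelihood test called none of them, 6 had an unadjusted p under 0.05, all lower (6.71% of all tested genes), and the exact test and DESeq2 called 4 each, all lower (1.78% and 1.88% of all tested genes). The quasi-likelihood fit that left out wild-type replicate 2 called 5 lower (1.09% of all tested genes). No marker of the list was at 0 in every library. Most markers of tubular injury lay in the other direction: 6 of 9 had a log2 fold change above 0, with a median of 0.27 (0.35 without wild-type replicate 2). *Havcr1*, *Krt8*, *Krt18*, *Cdkn1a* and *Vcam1* were higher in Ptpn6+/mev mice without overlap on FPKM, each at an unadjusted p under 0.05, while *Spp1* was lower at that p. Of all tested genes, 14.0% were higher without overlap and 5.53% higher at that p. The groups overlapped for *Lcn2* and *Sox9*, each with a log2 fold change of -0.08. Without wild-type replicate 2 these were 0.26 for *Lcn2* and -0.19 for *Sox9*. *Krt20* overlapped too, at 0.16 with all libraries and 0.63 without that mouse. None of the 9 was called by the quasi-likelihood test with all libraries. DESeq2 called *Krt18* and *Vcam1* higher, the exact test *Vcam1*, limma-voom 4 genes (*Krt18*, *Cdkn1a*, *Havcr1* and *Krt8*), and the quasi-likelihood fit that left out wild-type replicate 2 *Krt18* and *Krt20*. Of all tested genes these called 1.1%, 1.21%, 1.55% and 0.706% higher, in the same order. In bulk tissue, fewer cells of a type and less RNA per cell cannot be told apart, and the part of the proximal tubule or of tubular injury in the *Nqo1* values was not tested.

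Glutathione, the main soluble thiol of the cell, is made in a first and limiting step by glutamate-cysteine ligase, a pair of the catalytic subunit *Gclc* and the modifier subunit *Gclm*. *Gclc* lies on chromosome 9 from 77754535 to 77794485 on the plus strand. Ptpn6+/mev mice 1, 2 and 3 had 125, 96.5 and 111 FPKM, and wild-type mice 1, 2 and 3 had 116, 127 and 134. Ptpn6+/mev replicate 1 lay inside the wild-type range and the other Ptpn6+/mev mice below it. The fit gave a log2 fold change of -0.25 (SE 0.11, FDR = 0.424), 95% interval -0.52 to 0.01. With 1 library left out at a time it lay between -0.35 and -0.17.

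*Gclm* lies on chromosome 3 from 122245557 to 122270732 on the plus strand. In Ptpn6+/mev mice 1, 2 and 3 it reached 284, 225 and 228 FPKM, against 274, 303 and 278 FPKM in wild-type mice 1, 2 and 3. The picture was that of *Gclc*, with Ptpn6+/mev replicate 1 within the wild-type range and replicates 2 and 3 below it. On the log2 scale the fitted difference was -0.29 (SE 0.13, FDR = 0.404), 95% interval -0.58 to -0.001. A pseudogene on the same strand, *Gm6061*, shares 244 of the 6291 exonic bases of *Gclm*, and *Gm17494* on the opposite strand shares 296. The 2 subunits kept a similar proportion in all mice: the ratio of *Gclc* to *Gclm* FPKM was 0.452 ± 0.0313 in mice with the mev allele and 0.441 ± 0.0361 in wild-type mice (SD, n = 3 each). The ratio of *Nqo1* to *Gclm* was 0.426 ± 0.0344 and 0.621 ± 0.121 (SD, n = 3 each), without overlap (exact permutation test, two-sided, p = 0.1, the smallest possible). It was the 1 ratio of 6 compared that did not overlap.

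*Gsr* encodes glutathione reductase, which turns oxidized glutathione back into the reduced form with NADPH. It lies on chromosome 8 from 33652523 to 33698163 on the plus strand. Ptpn6+/mev mice 1, 2 and 3 had 178, 139 and 143 FPKM, and wild-type mice 1, 2 and 3 had 145, 152 and 159. Ptpn6+/mev replicate 1 was the highest of all 6 mice and its 2 group mates were the lowest. Against wild-type, the log2 fold change came to -0.05 (SE 0.11, FDR = 0.908), 95% interval -0.32 to 0.21. It was -0.02 without wild-type replicate 2 and 0.01 on the FPKM scale, so no direction can be given for *Gsr*.

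The thioredoxin and peroxiredoxin genes deal with hydrogen peroxide and oxidized protein thiols. *Txnrd1*, the cytosolic selenoenzyme that reduces thioredoxin, lies on chromosome 10 from 82833951 to 82897712 on the plus strand. In Ptpn6+/mev mice 1, 2 and 3 it reached 259, 219 and 232 FPKM, against 261, 282 and 327 FPKM in wild-type mice 1, 2 and 3. The groups did not overlap, but Ptpn6+/mev replicate 1 and wild-type replicate 1 were almost equal. Group means were 237 ± 20.8 and 290.1 ± 33.7 FPKM (SD, n = 3 each). The fit gave a log2 fold change of -0.35 (SE 0.11, FDR = 0.251), 95% interval -0.61 to -0.09. It did not depend on wild-type replicate 2, without which it was -0.32, with an interval from -0.56 to -0.07. The FDR of *Txnrd1* was 0.237 in the exact test and 0.153 in DESeq2.

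*Prdx1* encodes a peroxiredoxin that reduces hydrogen peroxide and was the most abundant of the 10 per length. It lies on chromosome 4 from 116685544 to 116700822 on the plus strand. Ptpn6+/mev mice 1, 2 and 3 had 506, 485 and 464 FPKM, and wild-type mice 1, 2 and 3 had 410.0, 764 and 423. The Ptpn6+/mev mice lay close together between the 2 lower wild-type mice and wild-type replicate 2. On the log2 scale the fitted difference was -0.17 (SE 0.30, FDR = 0.891), 95% interval -0.87 to 0.54. Without wild-type replicate 2 the sign turned: the log2 fold change was 0.35 (SE 0.08, FDR = 0.0605), with an interval from 0.17 to 0.52. The 1 mouse thus set the direction for *Prdx1*.

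Counts and FPKM of *Prdx1* also differed in their relation from library to library. Counts per unit of FPKM, relative to the median gene of the library, varied over a log2 range of 0.24 for *Prdx1*, against a median range of 0.03 over 7905 genes with an FPKM over 5 in every library. The same range was 0.10 for *Gclm*, 0.05 for *Txnrd1* and 0.02 to 0.03 for the other 7 genes. That of *Prdx1* was larger than the range of 87.1% of the 7905 genes, that of *Gclm* than 70.0% and that of *Txnrd1* than 55.6%. A value of this kind can vary where the transcript length assigned to a gene differs between libraries, and this was not tested. The FPKM of *Prdx1* carries the uncertainty of this relation in addition to the spread between mice.

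*Srxn1* encodes sulfiredoxin, which repairs peroxiredoxins that were overoxidized by peroxide. It lies on chromosome 2 from 152105516 to 152111376 on the plus strand. In Ptpn6+/mev mice 1, 2 and 3 it reached 333, 233 and 266 FPKM, against 247, 343 and 272 FPKM in wild-type mice 1, 2 and 3. Each group had 1 high mouse, Ptpn6+/mev replicate 1 and wild-type replicate 2, and the groups overlapped almost completely. Against wild-type, the log2 fold change came to -0.13 (SE 0.18, FDR = 0.844), 95% interval -0.54 to 0.28, and without wild-type replicate 2 it was 0.06. The ratio of *Srxn1* to *Prdx1* FPKM was 0.571 ± 0.0889 in mice with the mev allele and 0.565 ± 0.102 in wild-type mice (SD, n = 3 each).

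*Sod2* encodes the manganese superoxide dismutase of the mitochondrial matrix, and it is also a target of NF-κB. It lies on chromosome 17 from 13006846 to 13040063 on the plus strand. Ptpn6+/mev mice 1, 2 and 3 had 64.3, 58.0 and 58.95 FPKM, and wild-type mice 1, 2 and 3 had 66.6, 59.7 and 63.8. The means, 60.4 ± 3.41 and 63.4 ± 3.46 FPKM (SD, n = 3 each), differed by less than the spread between mice on this scale. On TMM-scaled log2 CPM the groups did not overlap, with 7.91, 7.77 and 7.78 in Ptpn6+/mev mice 1, 2 and 3 against 8.01, 7.95 and 7.93 in wild-type mice 1, 2 and 3. The fit gave a log2 fold change of -0.14 (SE 0.08, FDR = 0.570), 95% interval -0.33 to 0.05. *Sod2* thus had the narrowest interval of the 10 genes. Neutrophils can carry much *Sod2*. Over 10 neutrophil markers the summed FPKM was 25.1 to 58.7 in Ptpn6+/mev mice and 26.7 to 45.5 in wild-type mice, *Ly6g*, *Mpo*, *Elane*, *Mmp8* and *Camp* were below the filter on low counts, and the part of these cells in the *Sod2* values was not tested.

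**Figure D2:**
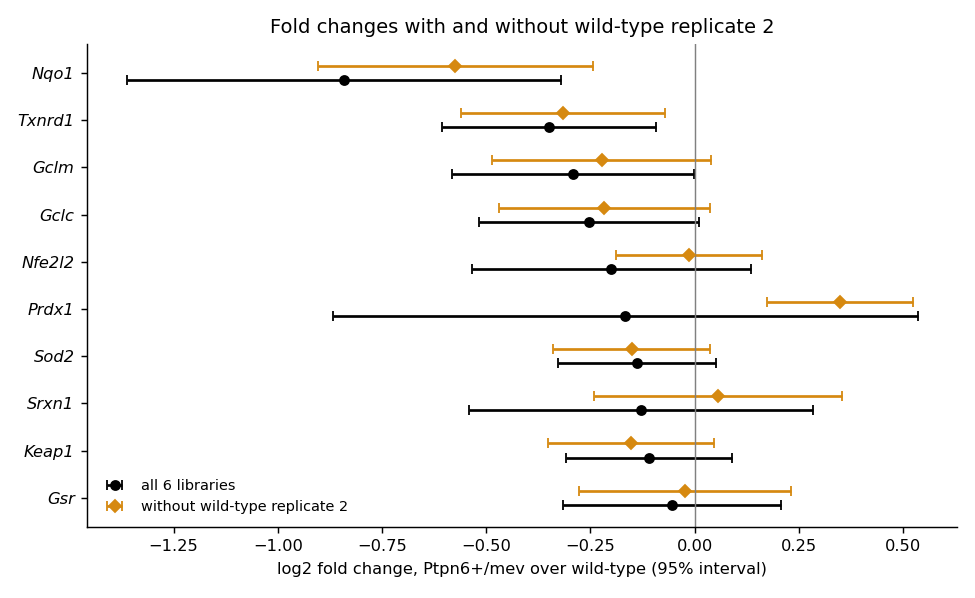
Log2 fold change of each gene, Ptpn6+/mev over wild-type, with its 95% interval from edgeR's quasi-likelihood fit, for all 6 libraries (black circles) and without wild-type replicate 2 (orange diamonds). The intervals of Nqo1 and Txnrd1 lie below 0 in both fits, whereas Prdx1 moves from -0.17 to 0.35.

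The order of the levels was similar in all mice. *Prdx1* was the highest of the 10 in 6 of 6 libraries and *Keap1* the lowest in 6 of 6. Averaged over the 6 libraries, FPKM was 509 for *Prdx1*, 282 for *Srxn1*, 265 for *Gclm* and 263 for *Txnrd1*, and the last 3 changed places from mouse to mouse. *Gsr* at 152, *Nqo1* at 142 and *Gclc* at 118 followed, and their places also changed. In 3 of 3 wild-type mice *Nqo1* was above *Gclc*, while in Ptpn6+/mev mice this held for replicate 1 alone. *Nfe2l2* at 66.1 and *Sod2* at 61.9 were near each other, and *Keap1* was at 18.7. Apart from *Keap1*, which stood at the 65.7th percentile of mean FPKM over all tested genes, the genes stood between the 88.4th percentile (*Sod2*) and the 98.8th (*Prdx1*).

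The spread between mice followed the same few libraries for several genes. On FPKM, Ptpn6+/mev replicate 1 was the highest of its group for 8 of the 10 genes (34.2% of all tested genes) and Ptpn6+/mev replicate 2 the lowest for 7 (32.7% of all tested genes). Wild-type replicate 2 was the highest of all 6 libraries for 5 of the 10, namely *Nfe2l2*, *Nqo1*, *Gclm*, *Srxn1* and *Prdx1*, against 17.3% of all tested genes. The largest coefficients of variation within a group were 37.7% for *Prdx1* and 25.3% for *Nqo1*, both in wild-type mice. The smallest within Ptpn6+/mev mice was 1.61%, for *Nfe2l2*, and the smallest within wild-type mice was 4.62%, for *Gsr*.

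**Figure D3:**
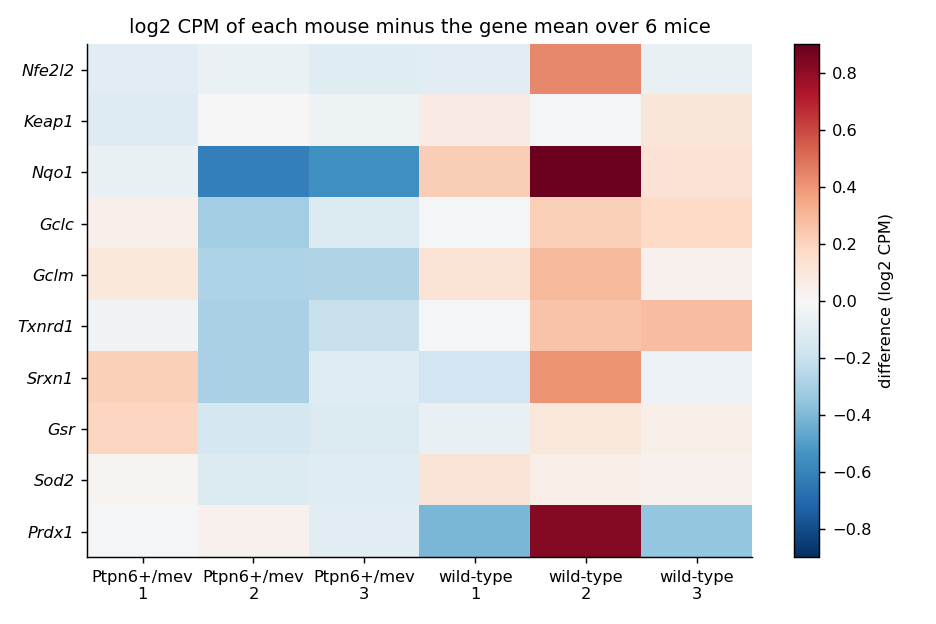
TMM-scaled log2 CPM of each gene in each mouse minus the mean of that gene over the 6 mice (colour, red above and blue below the mean). Wild-type replicate 2 is above the mean by 0.88 for Nqo1, 0.83 for Prdx1 and 0.43 for Nfe2l2, and Ptpn6+/mev replicates 2 and 3 are below it by -0.62 and -0.55 for Nqo1.

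Likeness of pattern was measured as the root mean square difference of log2 CPM, centred on each gene's mean, over the 6 libraries. *Gclc* and *Txnrd1* were nearest to each other among the 10, at 0.06, and *Keap1* and *Sod2* at 0.09. *Nqo1* was furthest from the rest, its nearest being *Gclm* at 0.31. Among 11852 other genes with a mean FPKM of at least 1, those nearest to *Nqo1* were *Aldh1a7* at 0.08, *Slc5a8* at 0.08 and *Acsf2* at 0.12, with a mean FPKM of 40.2, 1.91 and 10.02 in Ptpn6+/mev mice and 66.9, 3.23 and 18.45 in wild-type mice. Those nearest to *Nfe2l2* were *Adi1*, *Gga2* and *Ndufa9*, at 0.03, 0.03 and 0.04. With 6 libraries and so many genes some close patterns will occur for any gene.

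The rest of the pathway was described through lists of genes. Among other textbook NRF2 targets, 30 of 33 were tested, and the quasi-likelihood test called none of them. At an unadjusted p under 0.05, 12 were lower and none higher, against 6.71% and 5.53% of all tested genes. Of the 30, 23 had a log2 fold change below 0 and 7 above, with a median of -0.26, and without wild-type replicate 2 the median was -0.19. Edge cases by test were frequent: the exact test called 6 lower (*Hmox1*, *Cbr3*, *Gsta3*, *Cbr1*, *Gstp1* and *Osgin1*), and DESeq2 called 6 lower (the same but for *Fth1* in place of *Cbr3*), where 1.78% and 1.88% of all tested genes were called lower. With wild-type replicate 2 left out, 2 were called lower by the quasi-likelihood test, *Hmox1* and *Gsta3*, where 1.09% of all tested genes were called lower. The proximal tubule markers described above were lower beside this list (median -0.44, 11 of 12 below 0, sums of 1390.0 to 1538 against 1851 to 1965 FPKM), and their part in the values of these targets, and of *Cat* and *Gpx3* below, was not tested.

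Carbonyl reductases, which reduce ketones and quinones, had the largest fold changes of this list. The FPKM of *Cbr3* was 30.7, 13.0 and 14.1 in Ptpn6+/mev mice 1, 2 and 3, against 43.2, 92.6 and 40.5 in wild-type mice 1, 2 and 3, with a log2 fold change of -1.70 (SE 0.44, FDR = 0.174). *Cbr1* was at 115, 77.7 and 69.7 and at 146, 267 and 133, with a log2 fold change of -1.14 (SE 0.31, FDR = 0.194). Both had the order of mice seen for *Nqo1* in wild-type kidneys, with replicate 2 highest, and without that mouse their log2 fold changes were -1.16 and -0.72. *Osgin1*, an oxidative stress-induced growth inhibitor, had a log2 fold change of -0.72 (SE 0.16, FDR = 0.120).

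*Hmox1* and *Gsta3* were singled out after their values were seen. *Hmox1*, the heme oxygenase that breaks down heme to biliverdin, iron and carbon monoxide, had an FPKM of 409, 351 and 361 in Ptpn6+/mev mice 1, 2 and 3, against 496, 466 and 552 in wild-type mice 1, 2 and 3. Its groups did not overlap, and here wild-type replicate 2 was the lowest of its group. The log2 fold change was -0.50 (SE 0.09, FDR = 0.0873) and without wild-type replicate 2 it was -0.53 (FDR = 0.0287). *Gsta3*, a glutathione S-transferase, had a log2 fold change of -0.56 (SE 0.09, FDR = 0.0685), and -0.51 without that mouse (FDR = 0.0243).

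By mean FPKM over the 6 libraries, iron storage and thioredoxin were the most abundant products of the list. In wild-type mice alone, *Gstp1* (634 FPKM) and *Taldo1* (556 FPKM) were above *Txn1*. *Fth1*, the ferritin heavy chain, had a mean FPKM of 12569 ± 512 in mice with the mev allele and 15014 ± 377 in wild-type mice (SD, n = 3 each), without overlap, with a log2 fold change of -0.33 (SE 0.08, FDR = 0.150). *Ftl1*, the light chain, was at 2915 ± 99.1 and 2954 ± 378 (SD, n = 3 each). *Txn1*, thioredoxin itself, was at 584 ± 13.8 and 539 ± 23.2 (SD, n = 3 each), with a log2 fold change of 0.04, and of 0.09 when wild-type replicate 2 was left out. *Ftl1* and *Gstp1* had fractional counts, which can arise where similar genes share reads, so their levels are uncertain.

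Of the partners and competitors of NRF2, 13 of the 14 listed genes were found and tested, and none was called or had an unadjusted p under 0.05. *Dpp3* was not matched by its symbol. Their log2 fold changes were above 0 for 9 and below 0 for 4, with a median of 0.08. *Sqstm1*, the autophagy receptor p62 that binds KEAP1, was the most abundant, with a mean FPKM of 523 ± 20.7 in mice with the mev allele and 471 ± 80.0 in wild-type mice (SD, n = 3 each), and it had fractional counts. *Rbx1*, a subunit of the CUL3 ligase, was at 67.9 ± 3.04 and 64.8 ± 1.80, and *Nfe2l1*, the paralog of *Nfe2l2*, at 69.2 ± 3.49 and 63.0 ± 3.30 (SD, n = 3 each). The 3 genes without overlap on FPKM, all higher in Ptpn6+/mev mice, were *Palb2*, *Mafk* and *Gsk3b*, with log2 fold changes of 0.73, 0.17 and 0.07 and adjusted p of 0.506, 0.592 and 0.795 from edgeR's quasi-likelihood test. Leaving out wild-type replicate 2 gave 0.44, 0.20 and 0.05. With 1 library left out at a time they ranged from 0.40 to 0.92 for *Palb2*, 0.09 to 0.24 for *Mafk* and 0.04 to 0.10 for *Gsk3b*. On FPKM, 14.0% of all tested genes were higher without overlap and 6.38% lower.

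Other antioxidant enzymes, 33 genes and all tested, had a median log2 fold change of -0.07, with 21 below 0 and 12 above. The quasi-likelihood test called none of them, and 4 had an unadjusted p under 0.05, all lower (6.71% of all tested genes). *Cat*, the peroxisomal enzyme catalase, had an FPKM of 241, 190.0 and 193 in Ptpn6+/mev mice 1, 2 and 3, against 263, 284 and 283 in wild-type mice 1, 2 and 3. Its groups did not overlap, with Ptpn6+/mev replicate 1 nearest to the wild-type mice as for *Nqo1*. The log2 fold change of *Cat* was -0.48 (SE 0.11, FDR = 0.145), and the exact test and DESeq2 called it, with an adjusted p of 0.0369 and 0.0168. These tests called 1.78% and 1.88% of all tested genes lower. *Gpx3*, the secreted glutathione peroxidase that the proximal tubule makes, was at 13899 ± 739 in Ptpn6+/mev mice and 17324 ± 1454 in wild-type mice (SD, n = 3 each), with a log2 fold change of -0.37 (FDR = 0.242). *Gpx4*, which protects membrane lipids, was at 1117 ± 86.2 and 1114 ± 57.0, and *Mt1*, a metallothionein, at 1742 ± 299.9 and 1596 ± 193 (SD, n = 3 each). *Msrb3* had a log2 fold change of 0.41 (FDR = 0.508), and 0.18 without wild-type replicate 2. That of *Gpx3* was then -0.24.

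Enzymes that produce oxidants included the 1 gene of these lists that the quasi-likelihood test called. *Xdh*, xanthine oxidoreductase, which makes superoxide and hydrogen peroxide in its oxidase form, had an FPKM of 21.7, 25.4 and 25.2 in Ptpn6+/mev mice 1, 2 and 3, against 40.7, 36.7 and 39.5 in wild-type mice 1, 2 and 3. It fell by 0.76 on the log2 scale (SE 0.09, FDR = 0.0366), in a test that called 0.138% of all tested genes. The call was lost when any library but wild-type replicates 2 and 3 was left out, with values from -0.81 to -0.70 in those 4 fits. It was also lost in limma on log2 FPKM, with an FDR of 0.0555 at a pseudocount of 1 and 0.0568 at 0.1. A fit with the replicate number as a block lost it too (FDR = 0.147), though the numbers do not pair the mice. Of the 13 genes listed, 9 were tested, 5 of them above 0 and 4 below. The median log2 fold change of the list was 0.15, and -0.07 without wild-type replicate 2. *Cyba*, a subunit of the NADPH oxidase, had a mean FPKM of 284 ± 27.8 in Ptpn6+/mev mice and 287 ± 21.4 in wild-type mice, and *Nox4*, the renal NADPH oxidase, 17.2 ± 2.18 and 20.6 ± 4.35 (SD, n = 3 each). The log2 fold change of *Nox4* was -0.32 (FDR = 0.583), and -0.12 without wild-type replicate 2.

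**Figure D4:**
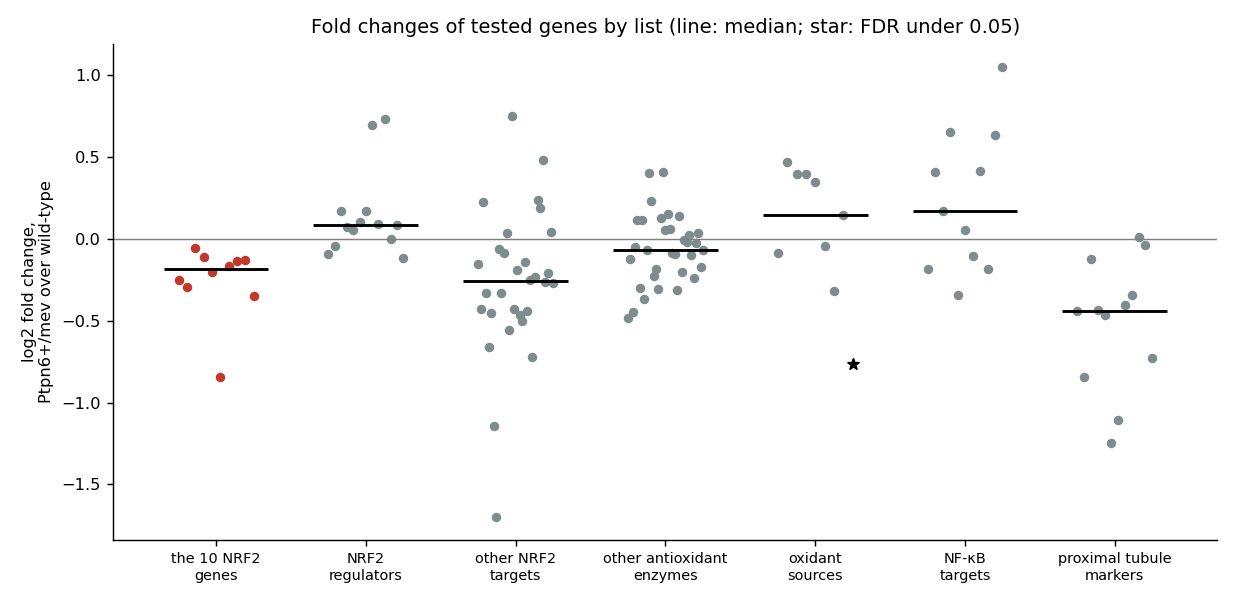
Log2 fold change, Ptpn6+/mev over wild-type, of every tested gene in each list (points), with the list median (line) and the gene at an FDR under 0.05 (star, Xdh). The medians are -0.18 for the 10 NRF2 genes, 0.08 for the regulators, -0.26 for other NRF2 targets and -0.44 for the proximal tubule markers.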

How the data were processed

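Kidney poly-A RNA of 6 mice was sequenced as read pairs. The authors aligned reads to GRCm38.p5 and deposited, for every gene and library, an estimated count and an FPKM value in 1 table. The submitters' processing notes name Bowtie2, TopHat2, Cufflinks and RSEM. Which tool gave the deposited counts is not given in the sources used here. Sample titles gave group and replicate. Expected counts (fractional for 1744 genes) were rounded. Genes were compared in R 4.3.3 by the quasi-likelihood F-test of edgeR 4.0.16 after TMM normalization and filterByExpr, and p-values were adjusted (Benjamini-Hochberg) over 13036 genes, with an FDR threshold of 0.05. The FPKM values served for levels, overlap of groups and exact permutation tests (scipy 1.17.1). Log2 CPM used a prior count of 2. The p-values set the difference between the groups against the spread between these mice.

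The 10 genes, the lists and the tests were chosen with earlier results of these data known. Besides the 10 genes and *Ptpn6*, genes named were, for each pathway list, those called, the 3 with the highest mean FPKM and the 3 with the largest fold change among genes without overlap and with a group mean of at least 1, and the genes nearest to *Nfe2l2* and *Nqo1*. Outside this rule, genes that only another test or fit called, a few genes for their level and single markers of cell types or injury were also named. The tubular injury markers were named by their results. Of the 16 alternatives, 15 were fixed at the outset: DESeq2 size factors, upper quartile normalization, DESeq2 1.42.0, edgeR's exact test, limma 3.58.1 on FPKM (log2, pseudocounts 1 and 0.1), no filter, a minimum of 10 counts per library, a replicate block, and omission of each library. limma-voom with sample quality weights was added after seeing the data. The fits were tested on simulated data, and no result of that is given here. Positions are from GENCODE M21 (GRCm38) and promoter sequences from RefSeq (GRCm38.p6). Where a symbol had several rows, the row whose Ensembl identifier carries it was used.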

Additional observations from a re-analysis of the deposited data

How the results depend on the processing

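Each log2 fold change was recomputed under 16 alternatives, and 36 of the 45 genes kept their direction in all of them, 7 of the 10 NRF2 genes among these. None of the 10 was called higher under any alternative. 1 was called lower (*Nqo1*) by DESeq2, by the exact test and by limma-voom with sample quality weights. The log2 fold change of *Srxn1* was 0.014 in limma-voom and -0.28 to 0.056 with 1 library left out. That of *Gsr* was 0.0087 on log2 FPKM with a pseudocount of either 1 or 0.1, and -0.18 to 0.0100 with 1 library left out (above 0 without Ptpn6+/mev replicate 2). *Prdx1* was at 0.27 in limma-voom and at -0.39 to 0.35 with 1 library left out. DESeq2, the exact test and limma-voom each called 6 other NRF2 targets and 1 other antioxidant enzyme, all lower. Of all tested genes these tests called 1.88%, 1.78% and 2.22% lower, in the same order. Leaving out 1 library gave 0 to 2 NRF2 targets and 0 to 1 oxidant source, and the oxidant source (*Xdh*) was also lost, leaving 0, on log2 FPKM with either pseudocount and with the replicate block. NF-κB targets called numbered 2 in DESeq2, 1 in the exact test and 1 in limma-voom, all higher. These tests called 1.1%, 1.21% and 1.55% of all tested genes higher. Among genes near 0, *Rbx1* was at 0.0054 with upper quartile normalization, 0.066 and 0.067 on log2 FPKM with a pseudocount of 1 and 0.1, 0.014 in limma-voom and -0.032 to 0.030 with 1 library left out. *Gpx4* was at 0.0025 on log2 FPKM with either pseudocount. With 1 library left out, *Sqstm1* ranged from -0.024 to 0.16, *Txn1* from -0.012 to 0.086, *Mt1* from -0.076 to 0.19 and *Nfkb2* from -0.24 to 0.012. The longer motif was found in 1 window in place of 5. Where values moved, the cause was not tested.

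Same-numbered mice did not deviate together (correlations of -0.14, -0.18 and -0.13), so the numbers do not pair them; with the replicate block, calls over all genes dropped from 18 to 1 and *Nqo1* was at -0.82. Over all genes the median log2 fold change was 0.06 and 0.08 on log2 FPKM with a pseudocount of 1 and 0.1, and that of the 10 genes was -0.09 in both.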

Other observations

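Genes of glutathione metabolism as annotated by KEGG in the deposited table, *Gclc*, *Gclm* and *Gsr* among them, numbered 60, of which 54 were tested. The quasi-likelihood test called none. At an unadjusted p under 0.05, 16 were lower and 4 higher in Ptpn6+/mev mice, against 6.71% and 5.53% of all tested genes. Of the 54, 38 had a log2 fold change below 0, against 50.5% of all tested genes, and the median was -0.19. The proximal tubule markers were lower beside these genes (median -0.44, 11 of 12 below 0), and their part in these values was not tested.

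NF-κB targets, a group to which *Sod2* also belongs, were listed as 12 genes, of which 11 were tested. The quasi-likelihood test called none, DESeq2 called *Nfkbia* and *Vcam1* higher, the exact test *Vcam1* and limma-voom with sample quality weights *Nfkbia*, where 1.1%, 1.21% and 1.55% of all tested genes were called higher. At an unadjusted p under 0.05, 4 were higher and 1 lower in Ptpn6+/mev mice, against 5.53% and 6.71% of all tested genes. *Vcam1*, an adhesion molecule that is also in the list of tubular injury markers, had a log2 fold change of 1.05 (FDR = 0.188, against 0.0123 in DESeq2 and 0.0180 in the exact test). *Cxcl2*, a neutrophil chemokine, was at 0.65 (FDR = 0.389) and *Tnfaip3*, a feedback inhibitor, at 0.63 (FDR = 0.281). By mean FPKM over all libraries, the most abundant of the list were *Nfkbia*, *Nfkb2* and *Icam1*, with log2 fold changes of 0.42, -0.11 and -0.34. In Ptpn6+/mev mice alone, *Nfkb1* (23.4 FPKM) was above *Icam1* (22.1 FPKM). Without wild-type replicate 2, *Tnfaip3* was at 0.42 and *Nfkb2* at -0.23. The median of the list was 0.17 with all libraries and -0.003 without wild-type replicate 2.

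Summed FPKM of the remaining marker lists overlapped between the groups. It was 2143 to 3040 in Ptpn6+/mev mice and 2589 to 3083 in wild-type mice for distal nephron markers, 24756 to 30476 and 27485 to 37300 for tubular injury markers, most of it *Spp1* (20881 to 25507 and 24406 to 32920), and 215 to 334 and 176 to 303 for macrophage markers. For endothelial markers it was 181 to 187 and 84.6 to 195, and for fibroblast markers 140.0 to 225 and 50.9 to 242.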
